A study of Mus musculus with 2 samples.

Results

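Enteroendocrine cells, the hormone-secreting cells of the gut epithelium, were described in single-cell transcriptomes of mouse jejunum under an antagonist of the Wnt receptors FZD5 and FZD8 and under an Fc control. A cell was taken as a member where at least 2 of 8 genes had 1 or more UMIs (unique molecular identifiers, each standing for 1 captured transcript). The 8 genes were Chga, Chgb, Neurod1, Neurog3, Rfx6, Isl1, Scgn and Pcsk1, and barcodes were used where 500 genes or more were detected and mitochondrially encoded genes took no more than 20% of UMIs. This gave 308 members among 22282 kept cells, 197 of 11019 in the antagonist library and 111 of 11263 in the control library. All groups share the allele Lgr5-eGFP-IRES-CreER, which drives GFP from Lgr5, a gene of crypt base stem cells, and the cells had been sorted for GFP, so members are those enteroendocrine cells that the sort let through. The labels give female mice aged 10 to 12 weeks, 3 per condition, and each condition is 1 library. Neither dose nor duration of the antagonist is given in the sources used.

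Enteroendocrine cells arise in the crypt from secretory progenitors that switch on the transcription factor Neurog3, pass through a short progenitor state, and then store peptide hormones or serotonin in dense-core granules. Their subtypes are named by their products, such as secretin, cholecystokinin, glucose-dependent insulinotropic peptide, glucagon-like peptides, ghrelin, somatostatin, neurotensin and, in enterochromaffin cells, serotonin and tachykinins. Wnt ligands acting through Frizzled receptors maintain the crypt stem cells from which these progenitors derive.

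The antagonist library held 55810293 UMIs in 13085 barcodes and the control library 67411637 UMIs in 12672 barcodes, with a median of 2732 and 4478 UMIs per kept cell. With 1 library per condition there is no replicate check, and every comparison is between these libraries, not the conditions. All intervals are 95% intervals that cover counting error only, exact for shares, levels and ratios and Newcombe intervals for differences of shares. The libraries differed in sex-linked transcripts against their common label: Xist, made from the inactive X chromosome of females, had 512 CPM (UMIs per 1000000 UMIs of the cells summed) in kept antagonist cells and 1.33 CPM in kept control cells, and 4 Y-linked genes together had 5.60 and 106 CPM. Among members Xist had 2668 UMIs in the antagonist library and 0 in the control library. This difference runs together with the treatment. In every comparison here an effect of sex therefore cannot be told apart from an effect of the antagonist. The libraries shared 145 barcodes, 67 of them kept in both, and no barcode was a member in both. No doublet caller was run and no cell was removed as a doublet.

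Members made up 1.79% (1.55 to 2.05) of kept cells in the antagonist library and 0.986% (0.811 to 1.19) in the control library, a difference of 0.802 percentage points (0.497 to 1.12). The direction of this difference depended on how many of the 8 genes were asked for. Cells with exactly 2 of the genes, just inside the rule, numbered 103 in the antagonist library and 31 in the control library, and cells with exactly 3 numbered 47 and 16. Cells with 4 or more numbered 47 (0.427%) in the antagonist library and 64 (0.568%) in the control library, a difference of -0.142 points (-0.331 to 0.0448). Just outside the rule, 464 antagonist and 260 control cells had exactly 1 of the genes. After every cell was thinned to 2000 UMIs, leaving out 4115 shallower cells in the antagonist library and 2380 in the control library, 54 of 6904 antagonist cells (0.782%, 0.588 to 1.02) and 79 of 8883 control cells (0.889%, 0.705 to 1.11) met the rule. At that depth 4 or more genes were seen in 0.275% (0.166 to 0.429) of antagonist and 0.462% (0.331 to 0.626) of control cells.

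**Figure D1:**
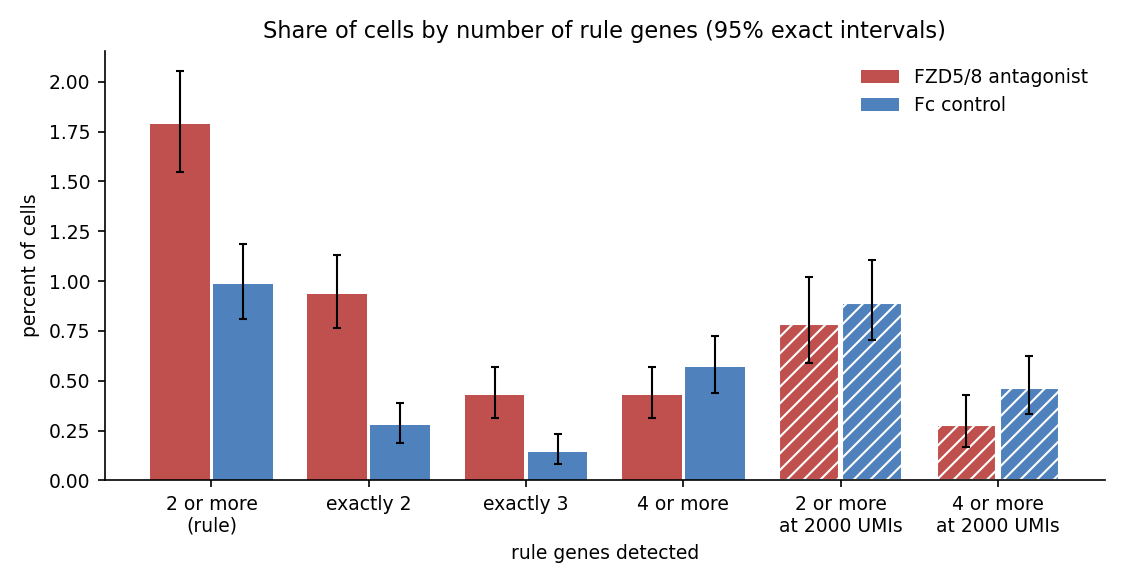
Bars give the percent of cells with the stated number of the 8 genes, FZD5/8 antagonist in red and Fc control in blue, with exact 95% intervals; plain bars are of kept cells, hatched bars of cells thinned to 2000 UMIs. The antagonist bar is the taller one for 2 or more (1.79% and 0.986%) and the lower one for 4 or more (0.427% and 0.568%) and for both thinned pairs.

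Members with few of the 8 genes differed between the libraries in depth. Among cells with exactly 2 of the genes the median was 8184 UMIs in the antagonist library and 3661 in the control library, while among cells with 4 or more it was 2606 and 4480.5. Very deep cells, those above the 95th percentile of their library's kept cells (12897.3 UMIs for antagonist and 14884.6 for control), were 66 of 197 antagonist members and held 90.6% of those members' UMIs. In the control library they were 9 of 111 members and held 38.3%. The 8 genes together stood at 74.2 CPM in the very deep antagonist members and at 5731 CPM in the other antagonist members, and at 1992 and 10735 CPM in the same 2 classes of control members. In 62 antagonist and 11 control members no gene of the 8 had more than 1 UMI. The pair Chga and Chgb alone admitted 46 antagonist and 12 control members.

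The name was checked against 16 enteroendocrine genes that the rule did not use (among them Insm1, Pax4, Pax6, Nkx2-2, Fev, Scg2, Scg3, Scg5, Cpe, Pcsk2, Vgf, Resp18, Gfra3, Cplx2 and Syt13). At least 2 of them were detected in 90 of 197 antagonist members (45.7%, 38.6 to 52.9) and in 91 of 111 control members (82.0%, 73.6 to 88.6). Among members with exactly 2 of the 8 genes the counts were 22 of 103 and 14 of 31, and with exactly 3 they were 24 of 47 and 14 of 16. With 4 or more they were 44 of 47 (93.6%) and 63 of 64 (98.4%), against 27 of 464 antagonist and 23 of 260 control cells with exactly 1 of the 8 genes. In cells with none of the 8 genes the counts were 15 of 10358 and 9 of 10892. The data therefore go against the name enteroendocrine for most antagonist members with exactly 2 of the genes. In the control library 14 of 31 such members (45.2%, 27.3 to 64.0) had 2 unused markers, so the name is unsettled there too. Among antagonist members with exactly 3 of the genes it was 24 of 47 (51.1%, 36.1 to 65.9). Of their 19 very deep cells 4 had 2 unused markers, so the name is unsettled there as well. Members with exactly 2 of the genes in both libraries, and antagonist members with exactly 3, are called members of the rule only. The very deep antagonist members carried goblet cell genes at 5247 CPM, Paneth cell genes at 15713 CPM, enterocyte genes at 2908 CPM and cell cycle genes at 2559 CPM beside their enteroendocrine genes. These levels were not particular to them. The same lists stood at 4804, 14196, 3318 and 1540 CPM in the other antagonist members. In all kept antagonist cells they stood at 5907, 22631, 4446 and 2125 CPM. The part of the very deep cells in the difference of member shares was not tested beyond leaving them out, which gave a difference of 0.298 points.

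**Figure D2:**
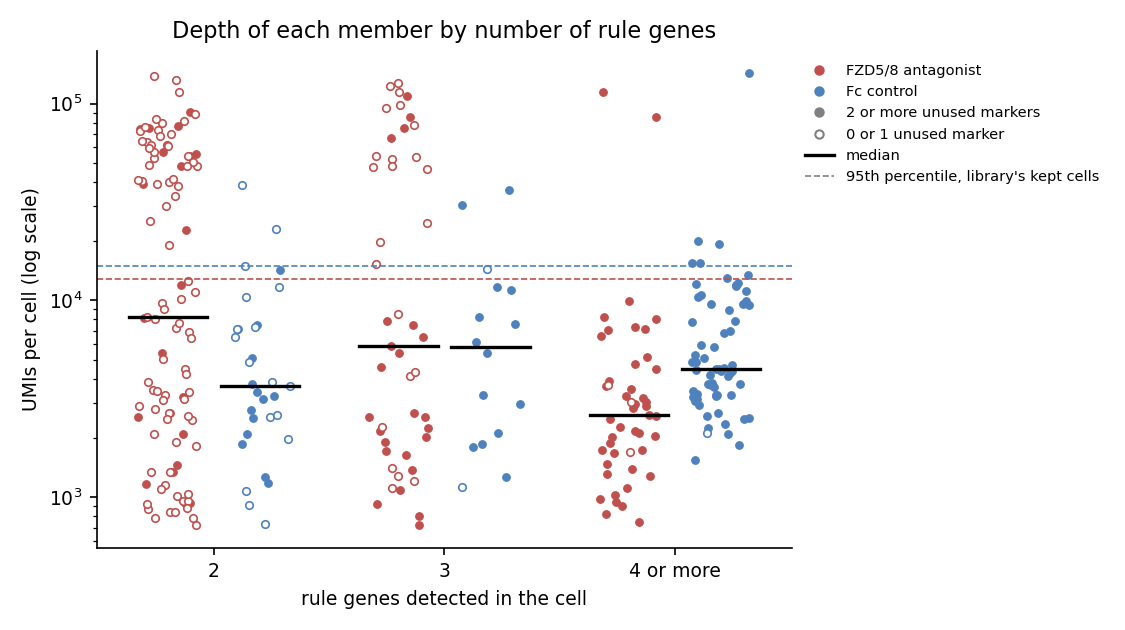
Each point is 1 member, placed by the number of the 8 genes detected and its UMIs on a log axis, FZD5/8 antagonist in red left of Fc control in blue; filled points have 2 or more of the 16 unused markers, black lines are medians and dashed lines the 95th percentile of each library's kept cells. Antagonist members with 2 or 3 genes form a separate upper cloud of mostly open points above the dashed line, which is nearly empty for 4 or more genes (2 of 47 cells).

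For levels of single genes, the members with 4 or more of the 8 genes and no more UMIs than the 95th percentile were therefore used beside all members. This set, called the restricted members here, was chosen after the values were seen. It held 45 antagonist cells (743 to 9914 UMIs, median 2581) and 59 control cells (1540 to 13391, median 4377). Of these, 42 and 58 had at least 2 unused markers. Per cell, the unused markers together made up a median of 2309 CPM in antagonist and 2707 CPM in control restricted members, against a median of 0 in the other kept cells of both libraries. Pcsk2 had no UMI in either library's restricted members, and Vgf was found in 0 antagonist cells and 1 control cell.

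Granule genes were near parity between the libraries in the restricted members. Of 30 listed genes for granule content, processing and release, 22 had 20 or more UMIs, 12 were higher and 10 lower in the antagonist library, and 3 in each direction passed 1.5-fold. Of all 3926 genes measured in these cells, 13.3% were higher and 16.7% lower by 1.5-fold or more in the antagonist library. The list's median log2 ratio was 0.10, beside 0.02 over all genes measured. The granins, acidic proteins that help form dense-core granules, include Chga and Chgb. Chga had 449 UMIs in 39 of 45 antagonist cells and 1030 in 52 of 59 control cells, or 3125 and 3096 CPM, a ratio of 1.01 (0.902 to 1.13). Chgb had 7615 CPM in antagonist and 11144 CPM in control cells, a ratio of 0.683 (0.638 to 0.731). The richest control cell held 405 UMIs of Chgb. Both granins were rule genes, and their detection is part of how the cells were chosen.

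Among granule genes that the rule did not use, the carboxypeptidase gene Cpe had 501 CPM in antagonist and 322 CPM in control restricted members, a ratio of 1.56 (1.14 to 2.12). Pcsk1n, which encodes an inhibitor of the prohormone convertase Pcsk1, had 251 and 132 CPM, a ratio of 1.89 (1.19 to 3.01). Both were past 1.5-fold, as was Syt13 on 13 and 17 UMIs. Lower past 1.5-fold were Ptprn2, a granule membrane protein, with 97.5 CPM in antagonist and 165 CPM in control cells, and the release genes Cadps and Vamp2, each on 25 or fewer UMIs per library. Secretogranins stayed within counting error: Scg2 had 661 and 580 CPM (ratio 1.14, 0.882 to 1.46), Scg3 139 and 111 CPM, and Scg5 104 and 78.1 CPM. Pcsk1 itself, the convertase that cuts prohormones, had 209 CPM in antagonist and 286 CPM in control cells (ratio 0.731, 0.468 to 1.11).

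Promoter sequences were read for the rule genes, unused markers and hormone genes that had enough UMIs over all members to be measured. These genes were not chosen for being detected in the same cells. Sst, for example, had a UMI in only 1 of 197 antagonist and 2 of 111 control members. Several motifs were searched before the following was chosen. The cyclic AMP response element in its full palindromic form, TGACGTCA, reads the same on both strands and was found in 588 of 32851 promoters of RefSeq (GRCm38.p6), or 1.79%, from 250 bases before to 50 after the start, and in 2.03% of genes. It was found in 5 of the 26 genes that had an entry, of 32 looked up: Chgb, Pax6, Pcsk1, Scg2 and Sst. The promoters of Chgb, Pcsk1, Scg2 and Sst, granule and hormone genes, are shown for 110 bases each, on the gene's own strand with the element in capitals, from chr2:132781522-132781631 (plus strand), chr13:75089737-75089846 (plus), chr1:79440037-79440146 (minus) and chr16:23890855-23890964 (minus) in the order given.
Chgb: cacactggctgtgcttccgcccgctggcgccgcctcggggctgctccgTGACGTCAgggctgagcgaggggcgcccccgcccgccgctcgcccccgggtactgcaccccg
Pcsk1: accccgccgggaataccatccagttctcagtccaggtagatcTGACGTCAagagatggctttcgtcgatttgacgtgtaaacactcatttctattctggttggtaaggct
Scg2: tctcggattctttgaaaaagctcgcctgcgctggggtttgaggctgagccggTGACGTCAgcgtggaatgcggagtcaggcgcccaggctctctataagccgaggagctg
Sst: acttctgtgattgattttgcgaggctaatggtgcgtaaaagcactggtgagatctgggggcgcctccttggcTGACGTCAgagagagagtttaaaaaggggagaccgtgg
The element began 72, 78, 68 and 48 bases before the start in Chgb, Pcsk1, Scg2 and Sst. The E-box CAGATG, searched on both strands, a form that basic helix-loop-helix factors such as Neurog3 and Neurod1 can bind, was found in 6 of the 26 genes (Cck, Gcg, Ghrl, Nkx2-2, Sct and Tac1) which is close to its share of all genes (19.2%; 17.2% of all promoters). A match is a description of these letters and not a site in use.

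Hormones were read cell by cell. A cell's leading hormone was the one with the most UMIs, at least 2, among 19 hormone genes, with Tph1, the first enzyme of serotonin synthesis, standing for serotonin. These are counts of 3' ends, not divided by transcript length. Over all members, 96 of 197 antagonist and 65 of 111 control cells had a leading hormone or a tie. Sct, which encodes secretin, led in 46 antagonist and 13 control members, Ghrl (ghrelin) in 15 and 17, Tac1 (tachykinins such as substance P) in 14 and 6, and Cck (cholecystokinin) in 9 and 3. Tph1 led in 3 antagonist and 16 control members. Fewer members were led by Gip (3 and 3), Gcg (0 and 3), Sst (1 and 2) and Nts (2 and 0). The 46 antagonist cells led by Sct had a median depth of 60620 UMIs and a median of 3 Sct UMIs. Outside the members 3.58% of antagonist and 3.17% of control cells had 2 or more Sct UMIs, the limit for a leading hormone. All kept cells outside the members, with or without Sct, had median depths of 2715.5 and 4482 UMIs.

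Among the members with 4 or more of the 8 genes the leading hormone was spread more evenly. In the antagonist library Cck, Sct and Tac1 each led in 8 of 47 cells (17.0%), Ghrl in 7, Gip in 3, Nts in 2 and Sst in 1. In the control library Ghrl led in 15 of 64 cells (23.4%), Tph1 in 14 (21.9%), Sct in 10, Tac1 in 6, Gip and Gcg in 3 each and Cck and Sst in 2 each. Tied cells were 1 and 1, and 9 antagonist and 8 control cells had no hormone at 2 UMIs. The share led by Cck was 13.9 points higher (2.78 to 27.2) in the antagonist library and the share led by Tph1 21.9 points lower (-33.4 to -10.6). The difference for Ghrl was -8.54 points (-22.4 to 6.92) and for Sct 1.40 points (-12.1 to 16.2), both within counting error. In the restricted members the differences were 14.4 points (2.62 to 28.2) for Cck and -20.3 points (-32.3 to -8.90) for Tph1.

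**Figure D3:**
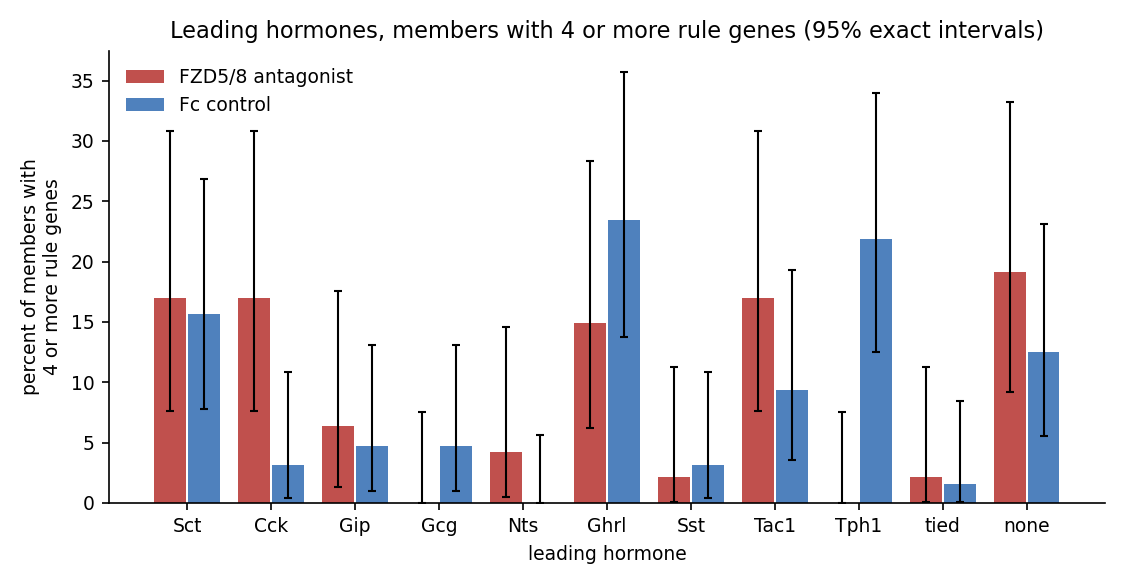
Bars give the percent of members with 4 or more of the 8 genes led by each hormone, FZD5/8 antagonist (47 cells) in red and Fc control (64 cells) in blue, with exact 95% intervals. The intervals are wide, and the clearest gaps are Cck (8 and 2 cells) and Tph1 (0 and 14 cells).

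Tph1 and Tac1, both made by enterochromaffin cells, were also counted together. Tac1 or Tph1 had 2 or more UMIs in 14 of 47 antagonist cells (29.8%, 17.3 to 44.9) and in 21 of 64 control cells (32.8%, 21.6 to 45.7), a difference of -3.03 points (-19.5 to 14.5). Both genes reached 2 UMIs in 9 and 15 of these cells. Within them Tph1 exceeded Tac1 in 2 of 14 antagonist cells (14.3%, 1.78 to 42.8) and in 14 of 21 control cells (66.7%, 43.0 to 85.4). These cells had a median depth of 2974 UMIs in the antagonist library and 4485 in the control library. Their Tph1 UMIs, not scaled to depth, summed to 53 in the antagonist library, with a median of 4 and a highest cell of 9, and to 262 in the control library, with a median of 10 and a highest cell of 32. Their Tac1 UMIs summed to 110 (median 7.5, highest 19) and 196 (median 8, highest 26). The 14 antagonist cells were led by Tac1 in 8, by Sct in 5 and tied in 1, whereas the 21 control cells were led by Tph1 in 14, Tac1 in 6 and Sct in 1. In summed levels of the restricted members Tph1 had 376 CPM in antagonist and 649 CPM in control cells (ratio 0.579, 0.421 to 0.783), and Tac1 773 and 532 CPM (ratio 1.45, 1.14 to 1.85). The share of restricted members with a Tph1 UMI did not follow its level: it was 12 of 45 in the antagonist and 17 of 59 in the control library, and after thinning to 2000 UMIs 10 of 29 (34.5%, 17.9 to 54.3) and 14 of 57 (24.6%, 14.1 to 37.8), whose intervals overlap. Ddc, the second enzyme of serotonin synthesis, had 278 and 340 CPM (ratio 0.820, 0.557 to 1.19). Slc18a1, the vesicle transporter, had 97.5 and 54.1 CPM on 14 and 18 UMIs, a ratio of 1.80 (0.829 to 3.83). No cell with 4 or more of the 8 genes had 2 UMIs of both Ghrl and Tph1.

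Ghrelin cells were found in both libraries with unequal content. Among cells with 4 or more of the 8 genes, Ghrl was detected in 14 of 47 antagonist cells, with 1 to 127 UMIs and a median of 14.5, and in 20 of 64 control cells, with 1 to 1164 UMIs and a median of 50. More than 20 UMIs were seen in 5 of the antagonist and 13 of the control cells. The antagonist cells led by Ghrl had a median depth of 1312 UMIs and those of the control library 3765. In the restricted members Ghrl had 2325 CPM in antagonist and 12824 CPM in control cells, a ratio of 0.181 (0.162 to 0.203), and without the richest cell of each library the ratio was 0.160. Restricted members held 334 of the 687 Ghrl UMIs of antagonist members and 4267 of the 4291 of control members. The richest antagonist member, with 209 Ghrl UMIs, had 3 of the 8 genes and was left out. The part of this unequal loss in the ratio was not tested. Among genes found in at least 10% of a library's members and past the limits on CPM and UMIs, Ghrl had the lowest ratio over all members. It stood at 145 CPM in antagonist and 4804 CPM in control members. Gcg, found in only 6 of 197 and 5 of 111 members, was outside this limit and lower still, at 13.9 and 2250 CPM.

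**Figure D4:**
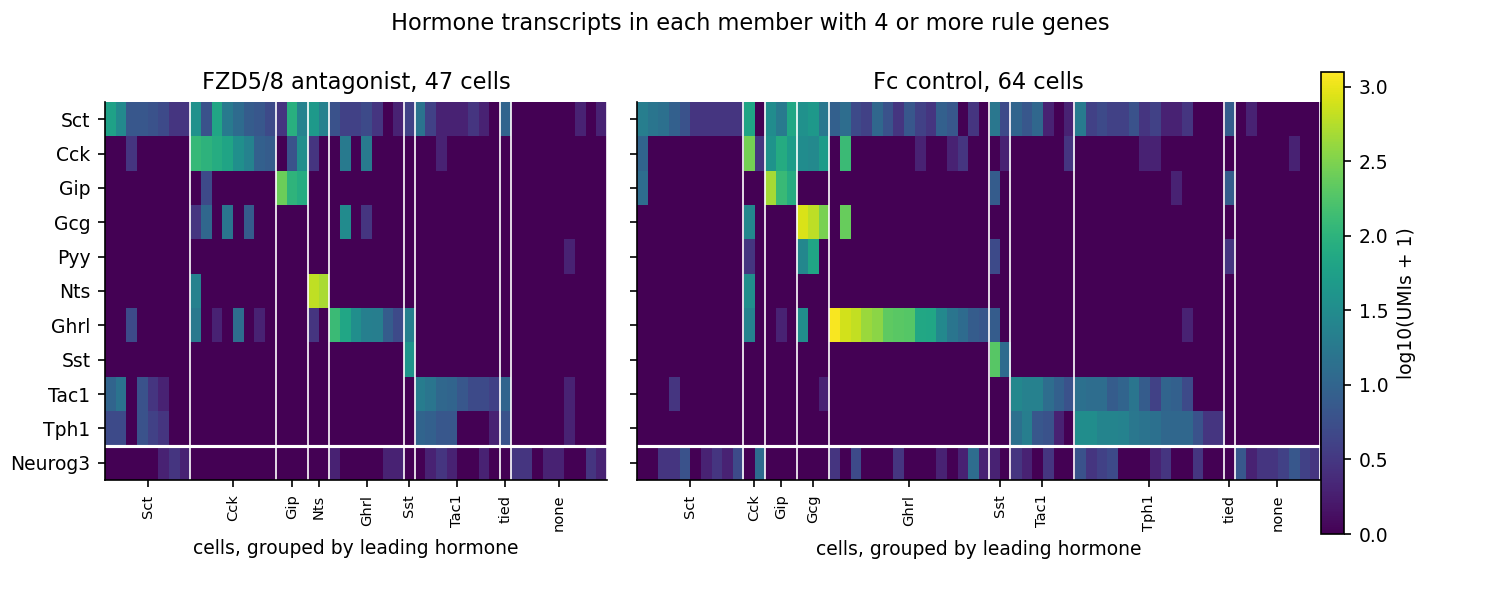
Each column is 1 member with 4 or more of the 8 genes (FZD5/8 antagonist left, Fc control right), grouped by leading hormone, and colour gives log10(UMIs + 1) of 10 hormone genes and Neurog3. Sct is spread over most groups, Tac1 and Tph1 share cells and avoid Ghrl, the brightest Ghrl and Gcg cells are in the control library (up to 1164 and 836 UMIs) and the brightest Nts cells in the antagonist library (641 and 513 UMIs).

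Secretin and cholecystokinin transcripts were higher in antagonist than in control restricted members. Sct was detected in 36 of 45 antagonist and 45 of 59 control restricted members, at 3473 and 1241 CPM, a ratio of 2.80 (2.45 to 3.20). Leaving out the richest cell of each library gave a ratio of 2.72, and weighting every cell alike gave mean levels of 4015 and 1483 CPM. Over all members the ratio ran the other way, 0.242 (0.216 to 0.272), on 148 and 610 CPM. Cck was detected in 14 of 45 antagonist and 16 of 59 control restricted members, at 3557 and 1978 CPM, a ratio of 1.80 (1.599 to 2.02). One control cell held 284 of the 658 control Cck UMIs, and without the richest cells the ratio was 2.55. Over all members Cck also ran the other way, on 136 CPM in antagonist and 805 CPM in control members. Not scaled to depth, restricted members with a Sct UMI held a median of 4.5 Sct UMIs in the antagonist and 4 in the control library. For Cck these medians were 20.5 and 5.5. Antagonist restricted members were shallower (median 2581 against 4377 UMIs) and had to show 4 of the 8 genes at that depth. The part of depth and of this choice in the ratios was not tested.

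The remaining peptides rested on a few cells each. Gip, an incretin, had 249, 102 and 82 UMIs in the 3 antagonist cells it led and 484, 124 and 82 in the 3 control cells. Gcg, which encodes glucagon-like peptides in the gut, led in no antagonist cell and had 836, 615 and 296 UMIs in the 3 control cells it led. Every cell with 2 or more Gcg UMIs also had 2 or more of Cck, 6 of 6 in the antagonist and 5 of 5 in the control library. Pyy, another peptide of these cells, had 2 or more UMIs in 3 of the 5 control cells and in none of the 6 antagonist cells. Nts (neurotensin) had 641 and 513 UMIs in the 2 antagonist cells it led, and 33 UMIs in 1 control cell. Sst, which encodes the inhibitory peptide somatostatin, led in 1 antagonist cell with 39 UMIs and in 2 control cells with 195 and 11. Insl5, Ppy, Vip, Cartpt and Penk were not detected in any restricted member, and 0 of 45 and 0 of 59 cells allow shares with a UMI of up to 6.67% and 5.08% (3 counts of the total).

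Most cells carried several hormones. Among cells with 4 or more of the 8 genes, 6 antagonist cells had 1 hormone at 2 or more UMIs, 13 had 2, 14 had 3, 4 had 4 and 1 had 5. In the control library 14 cells had 1, 18 had 2, 19 had 3, 2 had 4, 1 had 5 and 2 had 6. Sct was the usual partner: 31 of 47 antagonist and 45 of 64 control cells had 2 or more Sct UMIs.

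Transcription factors of the lineage were on the whole somewhat lower in the antagonist library. Of 30 listed factors 23 were measured in the restricted members, 8 higher and 15 lower, 2 and 7 of them past 1.5-fold, with a median log2 ratio of -0.23. Of 16 listed genes of the progenitor state, Neurog3 among them, 10 were measured, 3 higher and 7 lower, 5 of the lower and none of the higher ones past 1.5-fold, with a median of -0.54. Over all genes measured the shares past 1.5-fold were 13.3% higher and 16.7% lower, and the median was 0.02. Both lists hold genes of the rule, and the difference between the lists was not tested. Neurog3, which starts the endocrine programme, had 21 UMIs in 16 of 45 antagonist cells, none with more than 2, and 89 UMIs in 31 of 59 control cells, with up to 12 in a cell. That is 146 and 267 CPM, a ratio of 0.546 (0.323 to 0.887). Pax4, an early factor of the lineage, had 41.8 and 111 CPM (ratio 0.376, 0.1296 to 0.898), and Sox4, a factor of progenitors, 174 and 310 CPM (ratio 0.562, 0.348 to 0.877). Nkx2-2, a regulator of endocrine subtype choice, had 188 and 355 CPM (ratio 0.530, 0.335 to 0.811). Neurod1, which acts after Neurog3, had 550 CPM in antagonist and 529 CPM in control cells (ratio 1.04, 0.787 to 1.36). Isl1, Rfx6, Pax6, Insm1 and Fev had intervals that included 1.

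The share of cells with a Neurog3 UMI is given as a description, because Neurog3 was one of the 8 genes that chose the members. Over all members it was 43 of 197 (21.8%) in the antagonist library and 57 of 111 (51.4%) in the control library, and in the restricted members 16 of 45 (35.6%, 21.9 to 51.2) and 31 of 59 (52.5%, 39.1 to 65.7). Thinned to 2000 UMIs it was 8 of 29 antagonist and 23 of 57 control restricted members, 27.6% (12.7 to 47.2) and 40.4% (27.6 to 54.2), whose intervals overlap. Outside the members a Neurog3 UMI was found in 0.342% of antagonist and 0.565% of control cells. A leading hormone was present in 10 of 16 antagonist and 23 of 31 control restricted members with Neurog3, and in 27 of 29 and 28 of 28 of those without. The median sum of hormone UMIs was 3.5 and 9 in cells with Neurog3 and 45 and 40 in cells without. These values are a description only, since a cell with Neurog3 needed 3 of the other 7 rule genes and a cell without it 4.

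**Figure D5:**
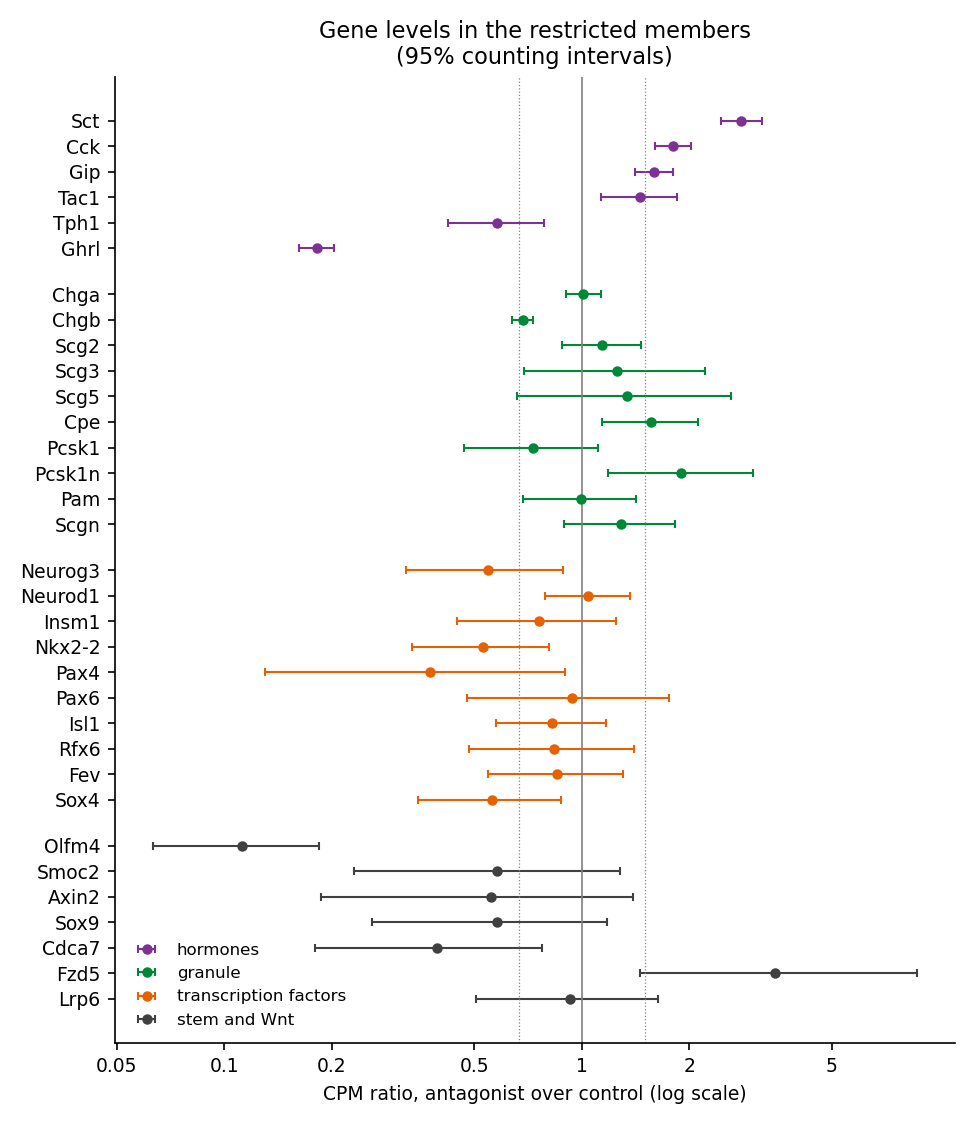
Points give the CPM ratio of antagonist over control in the restricted members (45 and 59 cells) on a log axis with 95% counting intervals, for hormones detected in many cells or leading in both libraries, granule genes, transcription factors and stem or Wnt genes; dotted lines mark 1.5-fold in each direction. Sct and Cck lie above 1, Ghrl (0.181) and Olfm4 (0.112) far below it, and most granule genes and factors have intervals that cross 1.

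Stem cell transcripts were lower in antagonist members than in control members. All 4 of the 6 stem genes that were measured in the restricted members were lower past 1.5-fold. Olfm4 had 16 UMIs in 12 of 45 antagonist cells and 331 in 44 of 59 control cells, or 111 and 995 CPM, a ratio of 0.112 (0.0632 to 0.185). Lgr5, the gene of the sorted reporter, had 0 and 11 UMIs, Ascl2, a stem cell factor, 0 and 10, and Gkn3 0 and 20. Against a floor of 3 counts in the antagonist library, 20.9 CPM, Gkn3 was at least 2.88-fold lower. Smoc2 and Axin2 had ratios of 0.579 and 0.556 with intervals that included 1. The same list stood at 438 CPM in the other kept antagonist cells and at 2889 CPM in the other kept control cells, so the direction was shared by cells outside the rule.

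Of 21 listed Wnt target genes 7 were measured in the restricted members, 3 higher and 4 lower, and 4 of the lower ones passed 1.5-fold. Beside Axin2 these were Sox9, Slc12a2 and Cdca7, the last with 69.6 CPM in antagonist and 177 CPM in control cells (ratio 0.393, 0.179 to 0.774). Fzd5, one of the 2 receptors the antagonist binds, had 15 UMIs in 9 of 45 antagonist cells and 10 in 10 of 59 control cells, or 104 and 30.1 CPM, a ratio of 3.47 (1.46 to 8.65). After thinning to 2000 UMIs a Fzd5 UMI was left in 2 of 29 antagonist cells (6.90%, 0.846 to 22.8) and 4 of 57 control cells (7.02%, 1.95 to 17.0). Of the 16 listed Wnt receptor genes, 4 were measured in the restricted members, 2 higher and 2 lower, 1 of the higher ones past 1.5-fold, with a median log2 ratio of 0.05. Over all members Fzd5 had 80.5 and 31.3 CPM. Fzd8 had 2 UMIs in antagonist members and 0 in control members, which was too few to compare. The coreceptor Lrp6 had 125 and 135 CPM in the restricted members (ratio 0.926, 0.505 to 1.63).

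Proliferation genes depended on which members were counted. Over all members 14 of 14 cell cycle genes were higher in the antagonist library, with a median log2 ratio of 1.12, and Mki67, a marker of cycling cells, had 352 CPM in antagonist and 157 CPM in control members. In the restricted members 9 were measured, 6 higher and 3 lower, with a median of 0.29. There Mki67 was found in 8 of 45 and 13 of 59 cells (118 and 87.2 CPM, ratio 1.36, 0.700 to 2.55), and Top2a, another such marker, in 14 and 16 cells (167 and 216 CPM, ratio 0.772, 0.465 to 1.24). The whole list summed to 1044 CPM in antagonist and 1016 CPM in control restricted members, both below the 2093 and 1606 CPM of the other kept cells of each library.

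Markers of other cell types moved with some of these values. In the restricted members the 6 enterocyte genes summed to 2374 CPM in the antagonist library and 544 CPM in the control library, with UMIs in 38 of 45 and 39 of 59 cells. Fabp1, which binds fatty acids, had 724 and 48.1 CPM (ratio 15.1, 8.85 to 27.3), and Rbp2, which binds retinol, 1246 and 295 CPM (ratio 4.23, 3.29 to 5.47). In the other kept cells the enterocyte list stood at 4589 CPM in the antagonist and 2232 CPM in the control library. The 6 Paneth genes summed to 1866 CPM in antagonist and 3384 CPM in control restricted members, nearly all from Defa24, a defensin with 1685 and 3057 CPM, and had UMIs in 40 of 45 and 59 of 59 cells. The 7 goblet genes summed to 1761 and 2038 CPM. Tuft genes were at 125 and 0 CPM, neural and glial genes at 13.9 and 12.0 CPM, immune genes at 97.5 and 222 CPM and mesenchymal genes at 0 in both. The defining genes Muc2 (goblet, 3 and 7 UMIs) and Dclk1 (tuft, 2 antagonist cells and 0 control cells) were near 0. The part of these transcripts in the differences of enteroendocrine genes was not tested.

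Genes outside all lists that stood out in members of both libraries are given as a description, since members were chosen by their transcripts. Outside the lists, Rbp4, which carries retinol in blood, led by the lower of its ratios over other kept cells of the same library. Among all 5943 genes with enough UMIs, list genes included, it had rank 4. It had 77.4 CPM in members and 0.343 CPM in the other kept cells of the antagonist library, and 303 and 0.781 CPM in the control library. Next came Scn3a, a voltage-gated sodium channel, Vim, the intermediate filament vimentin, Vwa5b2, Celf3, an RNA-binding protein, Ooep and Hmgn3, which binds nucleosomes. All of these were more than 10 times as high in members as in the other kept cells of both libraries. The others included Cdkn1c, an inhibitor of cyclin-dependent kinases, Cacna1a, a calcium channel, Bambi, Fam183b, Marcksl1, Myl7, Fabp5, Dst, Maged1, Egr1, Tm4sf4 and Cited2, with lower ratios down to 1.85. Ratios were larger in the control library for all of the genes named here, beside the larger share of UMIs from very deep cells among antagonist members.

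Summed over all members, the libraries differed widely, with very deep cells holding most antagonist UMIs. Of 9994 genes measured, 20.2% were higher and 19.3% lower by 1.5-fold or more in the antagonist library. All 14 measured unused markers, all 24 granule genes and all 26 transcription factors were lower, with medians of -3.21, -3.12 and -3.14 on the log2 scale, where the median over all genes was 0.01. In the restricted members the same lists had medians of -0.06, 0.10 and -0.23. Among genes with enough UMIs, the 12 with the highest ratios were Xist, Zg16, Rbp7, Apoa4, Apoa1, Reg1, Arg2, Gsta1, Elovl6, Guca2a, Gsdmc4 and Rragd. Zg16, a goblet cell gene, had 6831 UMIs in antagonist and 3 in control members, and 25 and 1 UMIs in the restricted members. Apoa1 and Apoa4, which encode apolipoproteins of absorptive enterocytes, had 270 and 64.7 CPM in antagonist members and 32.5 and 6.72 CPM in control members, but only 5 and 0 UMIs in antagonist and 2 and 3 UMIs in control restricted members. The 12 lowest were Ghrl, Etv1, Tph1, Gfra3, Pax4, Chgb, Cldn4, Neurog3, Insm1, Gadd45g, Mptx2 and Rimbp2. Of these, Ghrl, Tph1, Gfra3, Pax4, Chgb and Neurog3 had intervals below 1 in the restricted members too, and Rimbp2, a scaffold of release sites, was at 118 and 123 CPM there. Mptx2, a Paneth cell gene, was found in 42.6% of antagonist and only 18.0% of control members. Its direction turned when its richest members were left out, as given below. Gfra3, a receptor subunit found in endocrine progenitors, had 125 CPM in antagonist and 228 CPM in control restricted members (ratio 0.549, 0.309 to 0.926).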

How the data were processed

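The authors deposited raw UMI counts for each gene in each barcode. They came from Cell Ranger on GRCm38 (submitters' processing notes), in version 3.1.0 per the file headers. From them, cells were filtered and members taken by the rule stated above. The members, gene lists and alternatives were chosen with earlier results of these data known. UMIs were summed per library over a set of cells and scaled to CPM with the total of that set. Intervals are exact: Poisson for levels, conditional binomial for ratios, Clopper-Pearson for shares (scipy 1.17.1, statsmodels 0.14.6, Python 3.11.15), at 95% and for counting error only; PCR duplicates were collapsed by UMI. A gene was measured at 20 or more UMIs over both libraries, a fold of 1.5 stood in for a test, and log2 ratios had 0.5 added to each sum. Genes could be named from a list or the rule, whatever their value. Otherwise the 12 highest and 12 lowest ratios in members were named (at least 50 CPM in a library, 50 UMIs in all and 10% of a library's members), with the 20 genes outside the lists highest against the other kept cells (at least 100 UMIs). Left out of these were unnamed gene models and genes for haemoglobin, antigen receptors, ribosomal proteins and mitochondrially encoded products. Some genes that these rules or lists would name are not reported here, but stay in the counts and medians. The ratio intervals were tried on sums drawn from a Poisson model, the counting error they are built for. That model holds no variation between cells or animals, so the trial says nothing about either. Alternatives were other rules and filters, thinning, equal weight per cell and other minimums.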

Additional observations from a re-analysis of the deposited data

Results flagged for a closer look

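Barcodes left out by the cell filter lie outside every comparison above, and some of them carried the 8 genes. In the antagonist library 12 of 2066 left-out barcodes (0.581%, 0.300 to 1.01) had 2 or more of the genes, against 3 of 1409 (0.213%, 0.0439 to 0.621) in the control library. With 4 or more genes there was 1 such barcode in the antagonist library (0.0484%) and 0 in the control library, where a count of 0 allows a share of up to 0.213% (3 counts of the total). Both antagonist shares are above the control share, the second below what the control count of 0 allows, and no explanation was tested.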

How the results depend on the processing

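Results here are antagonist minus control for shares, antagonist over control for genes past 1.5-fold and medians of log2 ratios. Over all members the main values were 0.802 points for the member share, 11.6, -7.70, -12.9, 1.70, 1.87 and 9.83 points for the shares led by Sct, Ghrl, Tph1, Tac1, Cck and no hormone, 2022 genes higher and 1930 lower, and medians of -3.21, -3.43, -3.12, -3.14, -1.38 and 1.12 for unused markers, hormones, granule genes, transcription factors, stem genes and cell cycle genes. The shares led by Tph1 and Ghrl and the medians of stem and cell cycle genes kept their direction in every alternative that gave them. Asking for 3 or more genes gave a member share difference of 0.143 points, and list medians of -2.40 for unused markers, -2.23 for granule genes, -2.42 for transcription factors. Asking for 2 UMIs per gene gave a member share difference of -0.00223 points, leading share differences of 7.69 points for Cck, 1211 genes lower, and list medians of -1.999 for unused markers, -1.67 for granule genes, -2.02 for transcription factors. Applying the rule at 2000 UMIs gave a member share difference of -0.107 points, leading share differences of 0.985 points for Sct, 9.07 points for Tac1, 7.31 points for Cck, 505 genes higher and 1035 genes lower, and list medians of -0.24 for unused markers, -0.20 for hormones, -0.18 for granule genes, -0.51 for transcription factors, 0.21 for cell cycle genes. Leaving Chga and Chgb out of the rule gave a member share difference of -0.000259 points, and list medians of -2.15 for unused markers, -2.09 for granule genes, -2.14 for transcription factors. Asking for 1000 genes per cell gave list medians of -3.39 for granule genes, -3.53 for transcription factors. Without very deep cells, the calculation gave a member share difference of 0.298 points, leading share differences of -0.427 points for Sct, 585 genes higher, and list medians of -0.55 for unused markers, -0.67 for hormones, -0.51 for granule genes, -0.70 for transcription factors, 0.33 for cell cycle genes. Without members richer in another class's markers, the calculation gave a member share difference of 0.114 points, leading share differences of -0.268 points for Sct, 6.68 points for Cck, 532 genes higher and 734 genes lower, and list medians of 0.18 for unused markers, -0.21 for hormones, 0.0845 for granule genes, 0.11 for transcription factors, 0.0906 for cell cycle genes. Asking for 4 or more genes gave a member share difference of -0.142 points, leading share differences of 1.40 points for Sct, -21.9 points for Tph1, 7.65 points for Tac1, 13.9 points for Cck, 555 genes lower, and list medians of -0.55 for unused markers, -0.88 for hormones, -0.42 for granule genes, -0.84 for transcription factors. Asking also for 2 unused markers gave a member share difference of 0.00882 points, leading share differences of 6.70 points for Cck, 1247 genes lower, and list medians of -1.81 for unused markers, -1.83 for granule genes, -2.01 for transcription factors. In the restricted members, the calculation gave a member share difference of -0.122 points, leading share differences of 1.996 points for Sct, 7.61 points for Tac1, 14.4 points for Cck, 521 genes higher and 656 genes lower, and list medians of -0.063 for unused markers, -0.12 for hormones, 0.0962 for granule genes, -0.23 for transcription factors, 0.29 for cell cycle genes. Weighting members alike gave list medians of -0.83 for unused markers, -1.01 for hormones, -0.87 for granule genes, -0.98 for transcription factors. Thinning members to 2000 UMIs gave 649 genes higher and 811 genes lower, and list medians of -1.45 for unused markers, -1.30 for hormones, -1.20 for granule genes, -1.60 for transcription factors. With a minimum of 50 UMIs, the calculation gave 1167 genes lower. With no minimum, the calculation gave 4146 genes higher and 4213 genes lower. With a leading hormone from 1 UMI, the calculation gave leading share differences of 21.6 points for Sct. With one from 5 UMIs, the calculation gave leading share differences of -1.74 points for Sct, 26.3 points for no hormone. With peptide hormones only, the calculation gave leading share differences of -6.80 points for Tac1. The alternatives with 4 or more genes, unused markers and restricted members were chosen after seeing the data, and the causes of these changes were not tested. Of single genes, weighting members alike turned the log2 ratio of Sct to 0.21, of Gip to 0.0068 and of Mptx2 to 0.20, and without its richest members Mptx2 was at 1.56. No paired analysis was possible because each condition is 1 library, so no replicate could be left out either. Depth limits the restricted members: 29 antagonist and 57 control cells reached 2000 UMIs.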
